A study of Mus musculus with 2 samples.

Results

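Cells with transcripts of a SoxB1 gene (Sox1, Sox2 or Sox3) together with a transcript of Nkx6-1 or Olig2 were examined in dissected tissue of mouse embryos that holds the cardiac neural crest. A cell was selected when it held at least 1 unique molecular identifier (UMI, a tag that marks 1 captured RNA molecule) summed over Sox1, Sox2 and Sox3, at least 1 summed over Nkx6-1 and Olig2, and 0 of Shh, Foxa2, Wnt1, Wnt3a, Lmx1a, Olig3, Epcam and Sox10. Gdf7 also belonged to the excluded genes, but had no column in the tables used. The cells were thus chosen by their measured values, and the levels of these genes are given as a description. Of 21723 cells in all, 584 were selected: 316 of 11958 in WT and 268 of 9765 in KO.

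The study compared C57BL/6 embryos at E9.5 with and without Prdm6, a histone methyltransferase of the PRDM family, in the Wnt1 lineage. The genotype was Prdm6+/+; Wnt1-Cre2; ZsGreen1 in WT. In KO it was Prdm6f/f; Wnt1-Cre2; ZsGreen1, so that both groups carried the Cre transgene and the green reporter. The tissue ran from the otic placode back to the fourth somite, and there was 1 library per genotype. Wnt1-Cre2 drives Cre in the Wnt1 lineage, which includes the dorsal neural tube and the neural crest. Cells without a Wnt1 transcript were selected here, ZsGreen1 had no column, and whether Prdm6 was deleted in them could not be read. The libraries are pools of cells from which single embryos were not told apart.

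In the neural tube, Sonic hedgehog (Shh) from the notochord and floor plate sets up ventral progenitor domains, each with its own set of transcription factors. The homeodomain factor Nkx6-1 marks the ventral domains broadly, and the basic helix-loop-helix factor Olig2 marks the domain that makes somatic motor neurons. In the hindbrain, progenitors next to the floor plate express Nkx2-2 and give rise to visceral motor neurons. SoxB1 factors keep neural cells in the progenitor state and are lost as neurons mature.

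The selected cells held 542523 UMIs in WT, with a median of 1606 per cell, and 534465 UMIs in KO, with a median of 1837.5. All other cells had medians of 1596 and 1700 UMIs. The 26 cell barcodes that occurred in both libraries included 1 selected cell in each. Levels are given as UMIs per 1000000 UMIs of the cells named (CPM), with exact Poisson 95% intervals. Shares have exact Clopper-Pearson 95% intervals, and log2 ratios of KO over WT have exact conditional 95% intervals. All of these cover counting error only, and with 1 library per genotype no difference has a replicate check and no p-value is given.

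Nkx6-1 was the gene that selected most of the cells. This gene (chromosome 5, 101658139 to 101664996, minus strand, GRCm38) had a UMI in 256 of 316 WT cells (81.0%) and in 242 of 268 KO cells (90.3%). Its sum was 333 UMIs in WT and 330 in KO. Olig2 (chromosome 16, 91225457 to 91228677, plus strand) had a UMI in 88 WT cells and 35 KO cells, with sums of 99 and 38. Both genes were found in the same cell in 28 WT and 9 KO cells. Among the SoxB1 genes, Sox2 had 204 UMIs in WT and 237 in KO, Sox3 had 194 and 138, and Sox1 had 134 and 95.

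Most cells met the rule by the smallest possible margin. The SoxB1 sum was 1 UMI in 188 WT cells (59.5%) and 159 KO cells (59.3%), and the Nkx6-1 and Olig2 sum was 1 UMI in 235 (74.4%) and 204 (76.1%). Just inside the rule, 155 WT and 131 KO cells had 1 UMI of each kind. Just outside it, 408 WT and 376 KO cells had Nkx6-1 or Olig2 but 0 SoxB1 UMIs, and 154 WT and 165 KO cells met both minimums but held an excluded gene. At least 2 UMIs of each kind were found in 48 WT and 36 KO cells.

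**Figure D1:**
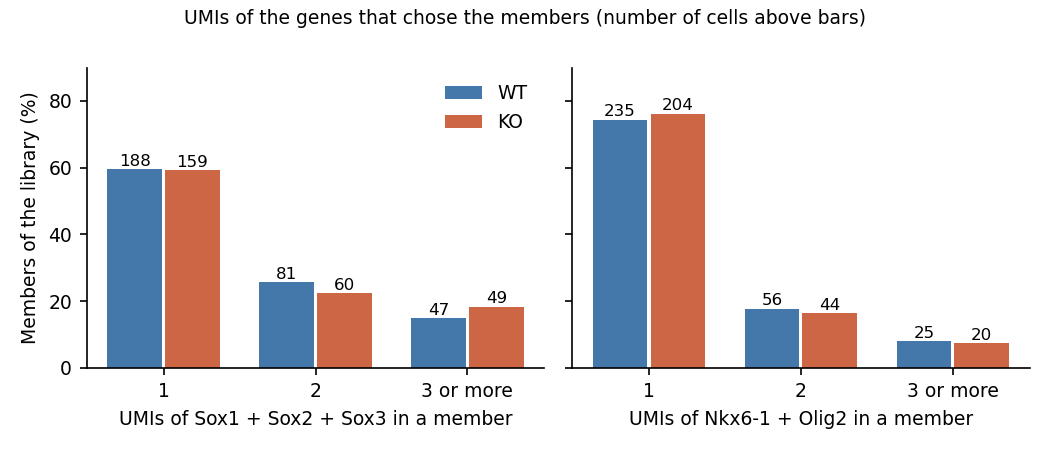
Share of the selected cells (members) of each library (y axis, percent) by the number of UMIs of Sox1, Sox2 and Sox3 (left) and of Nkx6-1 and Olig2 (right), with the number of cells above each bar. In both libraries most cells had 1 SoxB1 UMI (59.5% and 59.3%) and 1 UMI of Nkx6-1 and Olig2 (74.4% and 76.1%).

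Single UMIs of these genes were also found in cells that should lack them. Of 463 WT and 191 KO cells rich in globin and other erythroid transcripts, 24.2% and 22.5% had a SoxB1 UMI, and 3.02% and 5.76% had a UMI of Nkx6-1 or Olig2. Of 571 WT and 300 KO cells rich in cardiac muscle transcripts, 25.4% and 24.7% had a SoxB1 UMI, and 4.03% and 7% had Nkx6-1 or Olig2. These cells were deeper than the selected ones, with medians of 2028 and 2488 UMIs in the erythroid and 2360 and 3182.5 in the cardiac cells. Over all cells the shares were 34.4% and 36.3% for SoxB1, and 8.20% and 9.51% for Nkx6-1 or Olig2. After each cell was thinned to 1000 UMIs, SoxB1 was found in 12.1% and 11.1% of erythroid cells, 10.95% and 8% of cardiac cells and 23.8% and 23.3% of all cells. The thinned shares for Nkx6-1 or Olig2 were 1.52% and 3.16%, 1.77% and 2.67%, and 5.57% and 6.04%. Both kinds of UMI were thus less frequent in the background cells than over the library, but not absent from them, and a cell with a single UMI could not be told from background. The whole rule was met by 1.08% of WT and 1.57% of KO erythroid cells. Among cardiac cells it was met by 0.876% in WT and 2% in KO (0.74 to 4.30), against 2.64% and 2.74% of all cells. Nkx6-1 or Olig2 had a UMI in 11.4% of SoxB1 cells and 6.51% of cells without SoxB1 in WT, and in 12.2% and 7.97% in KO. Thinned to equal depth, these shares were 8.87% and 4.53% in WT and 8.23% and 5.37% in KO.

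The name ventral neural tube progenitors was checked against genes that took no part in the selection. Of the 4328 genes with at least 50 UMIs over the selected cells of both libraries, 23 (0.531%) were at least 2-fold higher than in all other cells in both libraries, and 2 (0.0462%) were at least 2-fold lower. The 23 include the 5 genes of the rule. The other genes with high ratios included Neurod4, a proneural factor, Foxb1 and Pou3f2, factors of neural progenitors, Elavl3, an RNA-binding protein of new neurons, Hoxb8, and Cyp26b1, which degrades retinoic acid. The lower ones were Ankrd1, a gene of muscle cells, and Slc2a3, a glucose transporter. Neurod4 had 43 UMIs in 28 WT cells and 43 in 20 KO cells, at 79.3 and 80.5 CPM against 17.8 and 19.5 CPM in other cells. Foxb1 had 44 UMIs in 39 WT cells and 57 in 43 KO cells, at 81.1 and 107 CPM against 24.5 and 27.4 CPM. Neural genes were thus among the highest, but few genes set these cells apart from the rest of the library. Hoxb8 was not above every other set of SoxB1 cells. It was at 136 CPM in WT and 73.0 CPM in KO. SoxB1 cells with Wnt1, Wnt3a, Lmx1a or Olig3 were at 152 and 33.5 CPM, and those with Shh or Foxa2 at 96.2 and 78.7 CPM.

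Ptch1, the Shh receptor and a direct target of Shh signalling, had the most UMIs of the Shh pathway genes in the selected cells. Ptch1 (chromosome 13, 63508328 to 63573598, minus strand) had 454 UMIs in 183 of the WT cells and 466 in 162 of the KO cells. Its level was 837 CPM in WT (762 to 918) and 872 CPM in KO (795 to 955). In all other cells the level of Ptch1 was 426 and 429 CPM. In SoxB1 cells with neither an Nkx6-1, Olig2 nor an excluded UMI it was 405 and 386 CPM, and in SoxB1 cells with Shh or Foxa2 it was 830 and 872 CPM. In SoxB1 cells with a dorsal gene (Wnt1, Wnt3a, Lmx1a or Olig3) the level was 316 and 307 CPM. Ptch1 in the selected cells was therefore above SoxB1 cells with neither and with a dorsal gene, and close to those with Shh or Foxa2, in each library. That last set held floor plate genes at 791 and 846 CPM. It also held surface ectoderm, placode and endoderm markers at 651 and 631 CPM, against 511 and 434 CPM in all other cells, so it may be mixed. The log2 ratio of Ptch1 over all other cells was 0.97 in WT (0.83 to 1.11) and 1.02 in KO (0.88 to 1.16).

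Other ventral factors were sparse. Nkx2-2, of the domain beside the floor plate, had 20 UMIs in 17 WT cells and 14 in 12 KO cells, and its log2 ratio over all other cells was 1.97 (1.22 to 2.63) and 1.63 (0.72 to 2.42). Nkx2-9, its close relative, had 18 and 15 UMIs, with ratios of 1.56 (0.78 to 2.26) and 1.24 (0.38 to 1.99). Nkx6-2, a relative of Nkx6-1, had 16 and 10 UMIs, with ratios of 2.38 (1.52 to 3.14) and 1.19 (0.10 to 2.11). Pax6, which spans the intermediate tube, had 48 and 53 UMIs and ratios of 0.91 (0.46 to 1.33) and 0.95 (0.53 to 1.35). Irx3, which lies dorsal to the Olig2 domain, had 50 and 46 UMIs and was at 92.2 and 86.1 CPM against 92.7 and 96.0 CPM in other cells. Olig1 had 0 UMIs in WT and 1 in KO. The 12 ventral factors outside the rule, with Pax6 and Irx3 among them, summed to 378 CPM in WT and 331 CPM in KO, against 259 and 264 CPM in other cells. In SoxB1 cells with neither they summed to 306 and 309 CPM, and the log2 ratio of the selected cells over these was 0.30 (0.08 to 0.52) in WT and 0.10 (−0.14 to 0.33) in KO, so the KO interval includes 0. Dorsal factors lay the other way. The 18 dorsal genes outside the rule summed to 380 and 335 CPM against 470 and 444 CPM in other cells, and to 1206 and 1192 CPM in the SoxB1 cells with a dorsal gene.

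The check was graded by the number of selecting UMIs, which was chosen after the data were seen. Neural progenitor genes, a list of 28 outside the rule that holds Crabp1, Sox11, Mdk and Sox4, summed to 10531 CPM in the WT cells with 1 UMI of each kind and to 15440 CPM in those with 2 or more of each. In KO the values were 10139 and 16165 CPM, and all other cells were at 9451 and 9405 CPM. Cells at the margin were thus closer to the rest of the library than cells with repeated UMIs, though still above it. Ptch1 was at 627 CPM in WT and 751 CPM in KO at the margin, again above other cells, and at 1339 and 1378 CPM in cells with 2 or more of each. Crabp1, a carrier of retinoic acid, was at 1886 and 1813 CPM at the margin and at 4462 and 4167 CPM with 2 or more of each. Sfrp1, a secreted Wnt modulator, was at 330 and 291 CPM and then at 809 and 941 CPM. The median depth was 1534 and 1604 UMIs at the margin and 1845.5 and 2397.5 UMIs with 2 or more of each, and the part of depth in the selection was not tested.

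Transcripts of other cell types were found in the selected cells, mostly at lower levels than in the rest of the library. That rest includes the blood and heart cells themselves, which raise its levels of erythroid and cardiac markers. Macrophage and megakaryocyte markers were an exception in KO, with 10 UMIs at 18.7 CPM against 15.6 CPM in other cells, a log2 ratio of 0.26 (−0.81 to 1.16), and had 3 UMIs in WT. The 8 erythroid markers, none of which was at 0, summed to 8153 CPM in WT and 5041 CPM in KO, against 14299 and 7386 CPM in other cells. The 3 cells with most held 1038 of the 4423 erythroid UMIs in WT and 1399 of the 2694 in KO, and without the cells rich in erythroid UMIs the sums were 5506 and 2462 CPM. Cells rich in erythroid UMIs were left out on the selected side only, and were kept among the other cells. The 10 cardiac muscle markers, again none at 0, summed to 2737 and 2672 CPM, against 4083 and 3293 CPM. For these markers SoxB1 cells with neither were at 4466 and 3323 CPM. SoxB1 cells with a dorsal gene were lower than the selected cells, at 1947 and 1308 CPM, as were those with Shh or Foxa2, at 1508 and 1656 CPM. The 18 mesenchyme and somite markers summed to 1156 and 1046 CPM, against 1454 and 1242 CPM. Endothelial markers summed to 95.8 and 84.2 CPM against 219 and 201 CPM, log2 ratios of −1.19 and −1.26, and migrating neural crest markers to 112 and 152 CPM against 204 and 212 CPM. With 2 or more selecting UMIs of each kind, erythroid markers were at 4493 and 1882 CPM, against 5645 and 2683 CPM at the margin without the erythroid-rich cells, and cardiac muscle markers at 1878 and 1053 CPM. Every selected WT cell and 267 of the 268 KO cells held at least 2 UMIs of the non-neural lists. So did 99.97% of all WT cells and 99.85% of all KO cells, so this was no trait of the selected cells. The part of free RNA in this was not tested. Neural progenitor genes, at 12204 and 12035 CPM, were not particular to the selected cells among SoxB1 cells, since those with a dorsal gene were at 12230 and 12608 CPM. Since the ventral factors outside the rule were not clearly above other SoxB1 cells in both libraries, and markers of blood or heart were present in nearly all cells, the cells are called here by the genes that chose them and not by the name of a cell type.

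**Figure D2:**
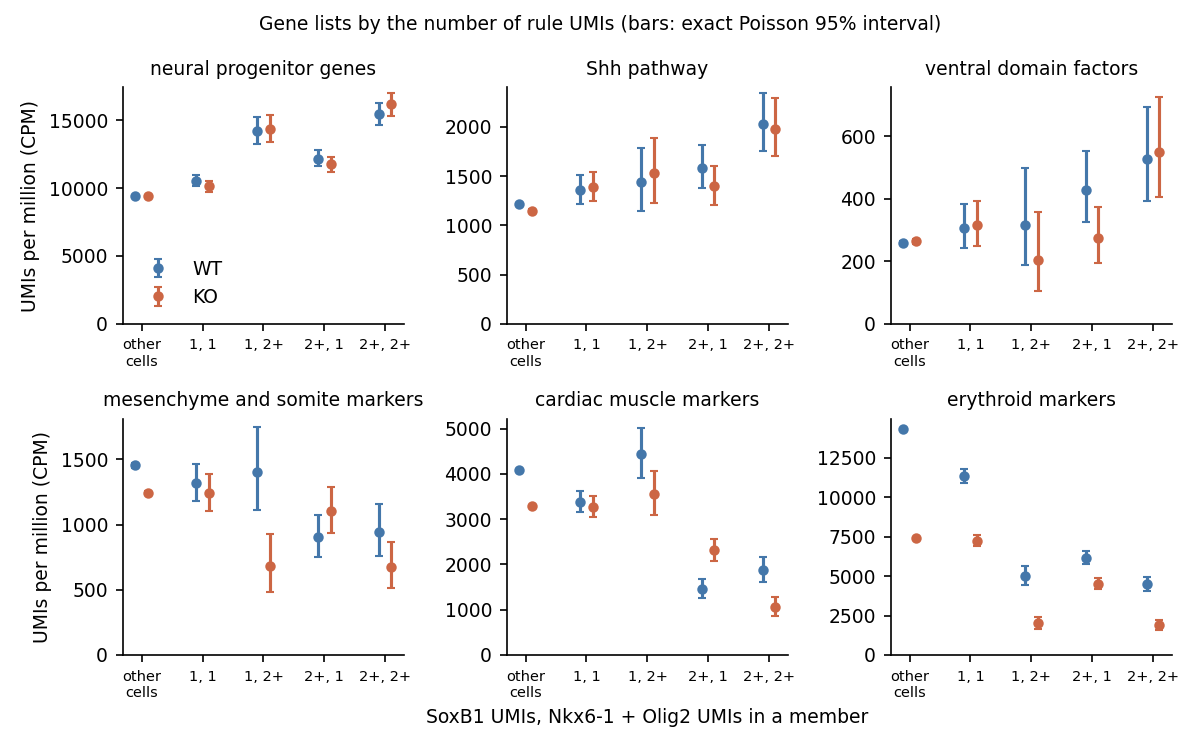
Summed level of 6 gene lists (y axis, CPM, from 0) in all other cells and in the selected cells split by SoxB1 UMIs and by Nkx6-1 plus Olig2 UMIs (x axis), in WT (blue) and KO (orange). Points are sums, bars are exact Poisson 95% intervals, and genes of the rule are left out. Neural progenitor genes rise from 10531 to 15440 CPM in WT and from 10139 to 16165 CPM in KO between cells with 1 UMI of each kind and cells with 2 or more of each, while erythroid markers go from 11342 to 4493 CPM and from 7243 to 1882 CPM (from 5645 and 2683 CPM without cells rich in erythroid UMIs).

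Members of the Shh, Notch, Wnt and retinoic acid pathways differed in how they compared with other cells. The 16 Shh pathway genes outside the rule summed to 1546 CPM in WT and 1506 CPM in KO, against 1215 and 1151 CPM in other cells, and Ptch1 alone was higher by more CPM than the whole list was. Gas1, a Shh co-receptor that Shh signalling lowers, was at 192 and 137 CPM against 269 and 242 CPM. The feedback genes Gli1 and Hhip were near the limit of detection, with 8 and 9, and 6 and 10 UMIs. Of the Notch genes, Hes5, a target of Notch signalling in progenitors, had 68 and 46 UMIs, at 125 and 86.1 CPM against 57.5 and 56.1 CPM. Fzd3, a Wnt receptor of the planar polarity pathway, was at 282 and 341 CPM against 145 and 190 CPM. Cyp26b1 was at 175 and 206 CPM against 63.2 and 70.1 CPM, and was at 363 and 493 CPM with 2 or more selecting UMIs of each kind. The FGF feedback gene Spry2 was lower, at 321 and 256 CPM against 542 and 413 CPM.

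Cells with and without Olig2 were set side by side within each library. By the rule, cells without Olig2 all held Nkx6-1. Neuron genes, a list of 29 measured genes that includes Elavl4, Onecut2 and Tubb3, summed to 349 CPM with and 622 CPM without Olig2 in WT, a log2 ratio of −0.83 (−1.29 to −0.40), and to 402 and 1158 CPM in KO, a ratio of −1.53 (−2.08 to −1.02). A few cells carried much of this, since 11 KO and 5 WT cells, none with Olig2, held 10 or more neuron-gene UMIs each. Without them the ratio was −0.48 (−0.95 to −0.03) in WT and −0.29 (−0.86 to 0.25) in KO. These cells were picked by the same genes and held no Olig2, so a smaller gap was fixed by that choice.

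Neurogenesis genes had log2 ratios of −0.44 (−0.75 to −0.14) in WT and −0.14 (−0.47 to 0.17) in KO. These ratios depended on the cells kept. They were −0.35 (−0.66 to −0.04) and 0.31 (−0.02 to 0.64) without the cells with 10 or more neuron-gene UMIs, −0.54 (−0.85 to −0.23) and −0.59 (−1.02 to −0.20) without the 5% deepest cells, and −0.15 (−0.71 to 0.38) and −0.10 (−1.04 to 0.71) after thinning. In KO the ratio was −0.53 (−0.92 to −0.17) without cells rich in erythroid or cardiac UMIs. The Shh pathway sums had log2 ratios of 0.08 (−0.14 to 0.29) in WT and 0.12 (−0.15 to 0.40) in KO, and those of the Notch pathway were −0.04 (−0.25 to 0.17) and −0.05 (−0.37 to 0.26). S phase genes were at 0.06 (−0.04 to 0.17) and 0.07 (−0.06 to 0.20), and G2/M phase genes at 0.02 (−0.07 to 0.10) and 0.03 (−0.07 to 0.13). Lists of other cell types also differed with Olig2, but not alike in the libraries. Cardiac muscle markers were at 0.60 (0.45 to 0.75) in WT and −0.16 (−0.38 to 0.06) in KO, and erythroid markers at −0.28 (−0.38 to −0.18) and 0.18 (0.03 to 0.32). Mesenchyme and somite markers were at 0.09 (−0.16 to 0.35) and −0.62 (−1.04 to −0.23), and migrating neural crest markers at 0.11 (−0.78 to 0.93) and −1.46 (−3.13 to −0.18). The BMP pathway was at −0.20 (−0.44 to 0.04) and −0.41 (−0.76 to −0.07). The part of these cell types in the other differences with Olig2 was not tested. Prdm8, a relative of Prdm6, had 14 of its 26 WT UMIs and 4 of its 10 KO UMIs in the cells with Olig2. Its log2 ratio was 1.58 (0.36 to 2.83) in WT and 1.88 (−0.39 to 3.95) in KO.

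**Figure D3:**
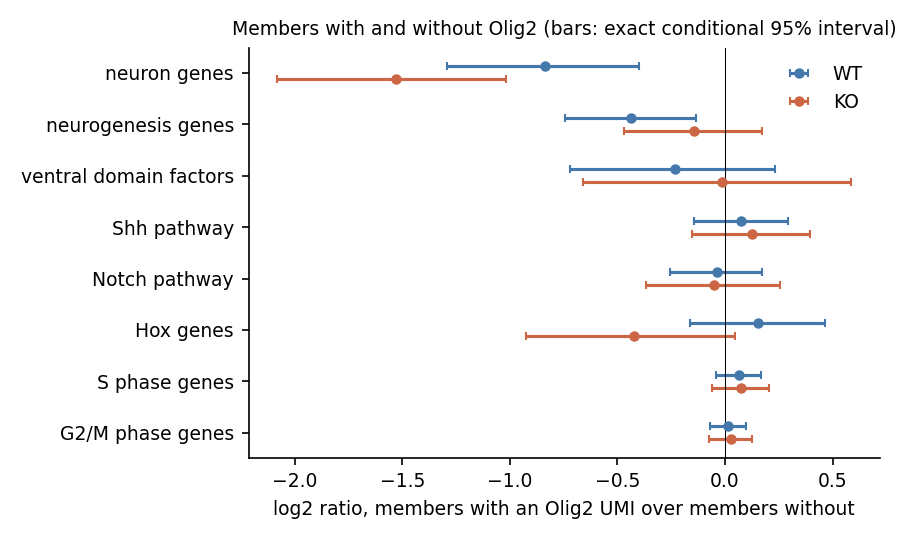
Log2 ratio of summed levels in selected cells with an Olig2 UMI over those without (x axis) for 8 gene lists (y axis), in WT (blue) and KO (orange), with exact conditional 95% intervals as bars and genes of the rule left out. Neuron genes lie to the left, at −0.83 and −1.53 (−0.48 and −0.29 without the cells that held 10 or more of their UMIs), and the Shh, Notch and cell cycle lists lie near 0.

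The share of selected cells was close in the 2 libraries. It was 2.64% of WT cells (2.36 to 2.95) and 2.74% of KO cells (2.43 to 3.09), a log2 ratio of 0.05 (−0.19 to 0.29). Among SoxB1 cells the shares were 7.67% and 7.57%. Cells with at least 2 UMIs of each kind made up 0.401% (0.296 to 0.532) and 0.369% (0.258 to 0.510) of the libraries.

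Olig2 was found in fewer of the selected KO cells, which is given as a description since Olig2 belongs to the rule. A UMI was present in 27.8% of the WT cells and 13.1% of the KO cells, a log2 ratio of −1.09 (−1.70 to −0.51). The level was 182 CPM in WT (148 to 222) and 71.1 CPM in KO (50.3 to 97.6). Thinned to equal depth, the shares were 22.3% and 7.43%. With 2 or more SoxB1 UMIs the shares were 33.6% and 15.6%, and with 2 or more of each kind they were 47.9% and 22.2%, or 23 of 48 and 8 of 36 cells, with a log2 ratio of −1.11 whose interval of −2.48 to 0.10 includes 0. Outside the selected cells the gap differed between sets. In cells that met both minimums but held an excluded gene, Olig2 had a UMI in 27 of 154 WT cells (17.5%) and 11 of 165 KO cells (6.67%). It had a UMI in 20.8% of WT and 18.4% of KO cells with Nkx6-1 or Olig2 but no SoxB1, and its level in all other cells was 6.62 and 6.25 CPM. Over whole libraries 1.83% and 1.51% of cells had Olig2, a log2 ratio of −0.28 (−0.59 to 0.03). Nkx6-1 was level in the selected cells, at 614 CPM in WT (550 to 683) and 617 CPM in KO (553 to 688).

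Most genes were alike in the selected cells of the 2 libraries. Of the 4328 genes with at least 50 UMIs, 21 (0.485%) were at least 2-fold higher in KO and 23 (0.531%) at least 2-fold lower. The lower ones include Olig2, a gene of the rule. The median log2 ratio was −0.00057, and the 5th and 95th percentiles were −0.59 and 0.55. Neuronal and neurogenic genes stood out among those that were higher. Of the 10 with the highest ratios, Nefl encodes a neurofilament subunit, Ebf1, Onecut2, Insm1 and Nhlh1 are transcription factors of new neurons, and Hist1h1b is a linker histone gene of replicating cells. AY036118, Gm42418, Bdp1 and Brwd3 complete them.

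Nefl (chromosome 14, 68083863 to 68089095, plus strand) had 10 UMIs in 9 WT cells and 41 in 13 KO cells, a log2 ratio of 2.06 (1.04 to 3.22), against 0.16 in all other cells. Ebf1 had 29 UMIs in 23 WT cells and 77 in 27 KO cells, a ratio of 1.43 (0.80 to 2.10), against 0.15 in other cells. Onecut2 had 25 and 58 UMIs (1.24, from 0.54 to 1.97), Insm1 24 and 55 (1.22, from 0.50 to 1.97) and Nhlh1 18 and 41 (1.21, from 0.38 to 2.10). In other cells these 3 were at −0.04, −0.01 and −0.05. These 5 genes were thus higher in the selected KO cells and near level in the rest of the library. Elavl4, an RNA-binding protein of neurons, had 48 and 97 UMIs, a ratio of 1.04 (0.52 to 1.57), against 0.08.

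The neuron genes summed to 296 UMIs in WT and 557 in KO. The levels were 546 and 1042 CPM, a log2 ratio of 0.93 (0.73 to 1.14), while all other cells were at 338 and 339 CPM. Of the 6 neuron genes with at least 50 UMIs, 3 were at least 2-fold higher in KO and 0 at least 2-fold lower, against 0.485% and 0.531% of all genes tested, with a median ratio of 0.91 against −0.00057. The 19 neurogenesis genes summed to 966 and 1272 CPM, a ratio of 0.40 (0.23 to 0.56), against −0.07 in other cells. Of 5 with at least 50 UMIs, 3 were at least 2-fold higher and 0 lower, against the same 0.485% and 0.531%, and Neurod4 was level at 43 and 43 UMIs. In the cells with 2 or more SoxB1 UMIs the ratio of the neurogenesis genes turned to −0.10 and that of the neuron genes was 0.28.

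Few cells carried this difference. In KO, 11 selected cells held 10 or more neuron-gene UMIs, from 10 to 56 each, and together 315 of the 557 UMIs (56.6%). In WT there were 5 such cells, with 10 to 14 each and 57 of 296 UMIs (19.3%). Of the 11 KO cells, 9 held Isl1, a factor of motor neurons, 0 held Olig2 and 2 had more than 1 SoxB1 UMI. Of the 5 WT cells, 1 held Isl1. The 11 cells accounted for 36 of the 41 Nefl UMIs, 59 of 77 for Ebf1, 31 of 41 for Nhlh1 and 40 of 58 for Onecut2. Without them the neuron genes were at 447 CPM in the other 311 WT cells (392 to 507) and 476 CPM in the other 257 KO cells (418 to 540). The ratio left was 0.09 (−0.17 to 0.35) for the neuron genes and 0.09 (−0.10 to 0.27) for the neurogenesis genes. Those of Nefl, Ebf1 and Nhlh1 turned negative, with intervals that include 0. The cells left out were picked by UMIs of the same neuron genes, so part of this fall was fixed by that choice. Without only the 3 cells per library with most neuron-gene UMIs, the neuron genes were at 0.71 (0.48 to 0.94). In whole libraries 62 WT cells (0.518%, from 0.398 to 0.664) and 66 KO cells (0.676%, from 0.523 to 0.859) had 10 or more neuron-gene UMIs.

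**Figure D4:**
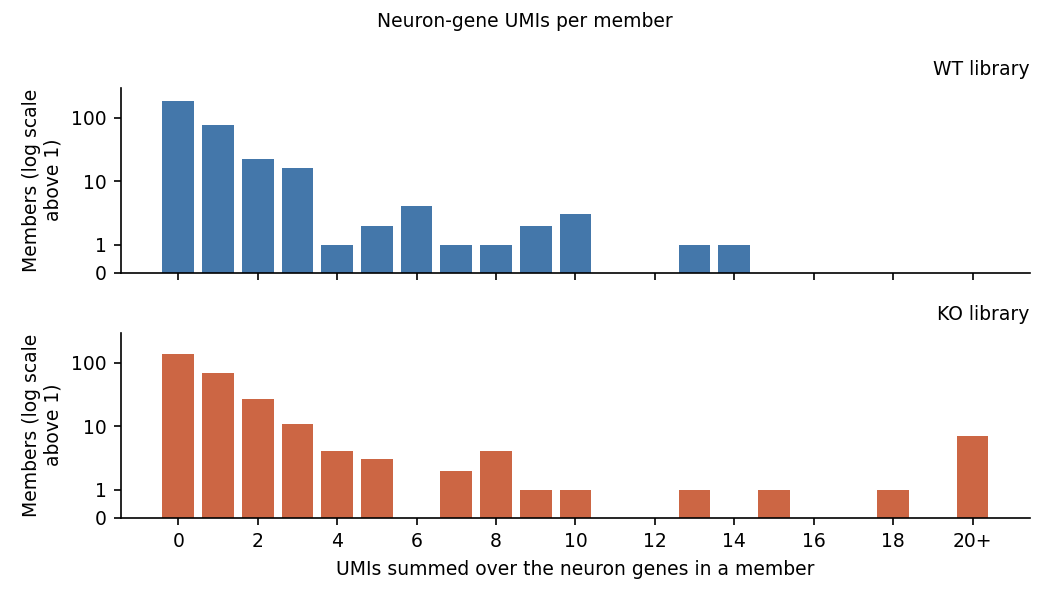
Number of selected cells (y axis, linear to 1 and log above) by the number of neuron-gene UMIs they held (x axis, values of 20 and more together), in WT (top) and KO (bottom). WT cells reach 14 UMIs, and 7 KO cells lie at 20 or more.

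Among the 10 genes with the lowest ratios no shared role was apparent. Bcat2, an enzyme of branched-chain amino acid breakdown, had 38 UMIs in WT and 13 in KO, a log2 ratio of −1.53 (−2.56 to −0.59). Lgmn, a lysosomal protease, had 40 and 14 UMIs (−1.49, from −2.49 to −0.58), and Btbd2 and Ccdc43 had 40 and 15, and 45 and 17. Olig2 was the fifth lowest of all 4328 genes, at −1.36 (−1.94 to −0.81). Since it belongs to the rule, this place is given only as a description. Mapkapk2, a kinase of the stress response, Fbxl7, Bora and Naa30 lay between −1.34 and −1.23. Gata6, a factor of heart and endoderm, had 68 and 28 UMIs (−1.26, from −1.95 to −0.60). In all other cells the ratios of these 10 genes ran from −0.68 for Lgmn to −0.08 for Olig2.

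**Figure D5:**
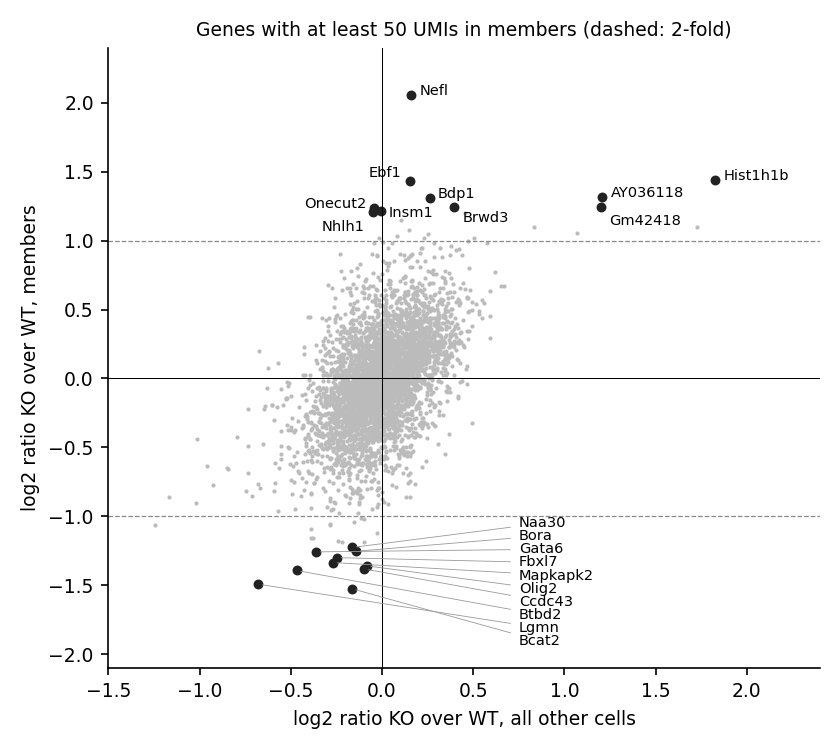
Log2 ratio of KO over WT in the selected cells (y axis) against the same ratio in all other cells (x axis) for 4328 genes, with the 10 highest and 10 lowest named and dashed lines at 2-fold. Hist1h1b, AY036118 and Gm42418 are high on both axes, while Nefl, Ebf1, Onecut2, Insm1 and Nhlh1 lie near 0 for other cells.

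Some differences were shared with the whole library. Hist1h1b had 27 and 72 UMIs in the selected cells (1.44, from 0.78 to 2.13), and its ratio in other cells was 1.83. The 60 clustered replication histone genes were at 345 and 567 CPM, a ratio of 0.72 (0.45 to 0.99), against 0.97 in other cells. Notch2, a Notch receptor, had 408 and 236 UMIs (−0.77, from −1.01 to −0.53), against −0.68. Ptk7, a planar polarity receptor, had 68 and 32 UMIs (−1.07, from −1.72 to −0.44), against −1.24. Xist, expressed from the inactive X chromosome, had 88 and 180 UMIs (1.05, from 0.68 to 1.44), against 1.07, and the Y-linked Ddx3y had 35 and 10 UMIs, so the mix of sexes in the pools cannot be told apart from genotype. Of the 44 genes past 2-fold, 40 had the same sign in other cells and 6 were past 2-fold there too.

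Hox genes differed between the libraries by paralog group. Paralog groups 1 to 4, of the hindbrain and neck, summed to 472 CPM in WT and 485 CPM in KO, a ratio of 0.04 (−0.22 to 0.29). Within them group 1 was lower in KO, with 33 and 17 UMIs (−0.94, from −1.87 to −0.05), and groups 2, 3 and 4 were at −0.12 (−0.67 to 0.42), 0.23 (−0.18 to 0.63) and 0.24 (−0.27 to 0.76). Paralog groups 5 to 9, of more posterior levels, summed to 278 and 174 CPM, a ratio of −0.68 (−1.07 to −0.30), against −0.90 in other cells. The ratio was −1.30 (−1.89 to −0.74) with at least 2 SoxB1 UMIs, −1.23 (−2.20 to −0.33) with 2 or more UMIs of each kind and −1.20 (−1.67 to −0.74) without the cells with 10 or more neuron-gene UMIs. The 3 cells with most held 32 of the 151 UMIs in WT and 29 of the 93 in KO. Group 5 had 60 and 46 UMIs, group 6 had 4 and 5, group 7 had 5 and 2, and group 9 had 7 and 1. Hoxb8 had the largest difference in UMIs among these, with 74 UMIs in 36 WT cells and 39 in 13 KO cells, a ratio of −0.90 (−1.5 to −0.32), against −1.02 in other cells. T, a gene of the tail bud, had 0 UMIs in the selected cells of both libraries, which allows up to 3 UMIs in each. Where along the body axis each library was cut cannot be told apart from genotype.

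The Notch pathway was at 1677 CPM in WT and 1291 CPM in KO, a ratio of −0.38 (−0.52 to −0.23) against −0.31 in other cells. Notch2 alone made most of this, and without it the ratio was −0.12 (−0.31 to 0.06). In the cells with 2 or more selecting UMIs of each kind, the Notch pathway was at −0.063 (−0.36 to 0.23), the FGF pathway at −0.60 (−1.13 to −0.10) and retinoic acid genes at 0.47 (0.02 to 0.93). The Shh pathway ratio was −0.04 (−0.18 to 0.10) and that of Ptch1 was 0.06 (−0.13 to 0.25). Ratios for the ventral and the dorsal factors were −0.19 (−0.49 to 0.11) and −0.18 (−0.48 to 0.11), for the Wnt pathway −0.01 (−0.12 to 0.10), for the BMP pathway −0.15 (−0.30 to 0.00) and for the FGF pathway −0.19 (−0.40 to 0.01). Neural progenitor genes were at −0.02 (−0.07 to 0.03). S phase genes were at −0.01 (−0.08 to 0.06), and G2/M phase genes were at 0.11 (0.06 to 0.16) against 0.10 in other cells. Bmp4, which the study examined, had 19 and 17 UMIs. Prdm6 had 1 UMI in the selected WT cells and 2 in the KO cells, so its loss was not detectable at this depth. Prdm8 had 26 and 10 UMIs, a ratio of −1.36 (−2.57 to −0.26) against −0.56 in other cells, and the 13 Prdm genes together were at 241 and 174 CPM, a ratio of −0.47 (−0.87 to −0.08).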

How the data were processed

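Single-cell RNA-seq was carried out on 2 libraries, 1 WT and 1 KO. Per the labels, the authors used Cell Ranger 1.3.1, Scanpy and the mm10 build. Per their methods, cells outside set UMI and gene limits and doublets called by DoubletFinder were removed with mitochondrial and ribosomal genes, and no further doublet caller was run here. The deposited signal values are square roots of UMI counts scaled to 1641 UMIs per cell by the authors. They were squared and divided by the smallest nonzero square of the cell, which gave whole UMIs for 100% of values within 0.01. The WT library had 11958 cells and 20781384 UMIs, and the KO library 9765 cells and 18936857 UMIs. UMIs were summed over cells and given per 1000000. Coordinates are from GENCODE vM21 (GRCm38), in which 17917 of 18131 symbols were found.

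No test was made, since cells of 1 library are not replicates. Ratios across genes used genes with at least 50 UMIs over the selected cells, and a count of 0 was read as allowing 3 UMIs. Named genes are those of the rule, per list up to 4 with most UMIs and up to 3 with the largest ratio, the 10 highest and 10 lowest ratios of KO over WT, the 20 highest over other cells, Hox genes by paralog group, and Prdm6, Wnt1 and Bmp4. Others, such as Nkx2-9, Nkx6-2, Olig1, Isl1, Gli1, Hhip, T and the 2 genes lowest against other cells, were named after their values were seen, and a few genes that the rule would name are not reported here. The cells and lists were chosen with earlier results of these data known. List sums leave out the genes of the rule. Erythroid and cardiac cells had at least 10% or 2% of their UMIs in those markers. Thinning to 1000 UMIs left out 1361 WT and 125 KO cells, of which 21 and 1 were selected cells. Scripts used Python 3.11.15, numpy 2.4.6 and scipy 1.17.1 and were tested on simulated counts.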

Additional observations from a re-analysis of the deposited data

Results flagged for a closer look

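The neurogenesis genes had ratios of KO over WT of opposite sign in the selected cells and in all other cells, at 0.40 and −0.070 on the log2 scale, with counting intervals clear of 0 on both sides. The difference between these 2 ratios was not tested, since there was 1 library per genotype. As given above, 11 KO cells rich in neuron-gene UMIs moved with it, and their part in the result was measured only by leaving them out.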

How the results depend on the processing

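No paired analysis was possible because each genotype had 1 library, and no replicate could be left out. Of 288 summary values under other settings, 247 stayed within their counting interval or within 1.5 times the count, 40 moved and 1 reversed, and of 1062 values for single genes 999 stayed, 53 moved and 10 reversed. The cause was not tested except where cells or genes were left out. Leaving out cells with 2 or more UMIs of the non-neural lists gave no value, since 0 WT and 1 KO cells remained. With a minimum of 20 UMIs, 129 genes were at least 2-fold higher in KO and 207 lower. With a minimum of 100 UMIs there were 7 and 2, and by means over cells 37 were lower.

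With at least 2 SoxB1 UMIs the log2 ratios of KO over WT were −0.10 for neurogenesis genes, the opposite sign, 0.28 for neuron genes, −0.50 for Hox genes, −1.30 for Hox groups 5 to 9, 0.20 for retinoic acid genes and −0.31 for Nhlh1. The settings that follow on cells were chosen after seeing the data, except thinning and leaving out the deepest cells. With at least 2 UMIs of each kind they were 0.22 for neurogenesis genes, 0.53 for neuron genes, −0.64, −0.36 and −1.23 for all Hox genes, Hox groups 1 to 4 and 5 to 9, 0.47 for retinoic acid genes, 0.16, 0.22 and −0.60 for the Wnt, BMP and FGF pathways, −0.063 for the Notch pathway, 0.066 for neural progenitor genes, −0.081 for S phase genes and 0.24 for G1 regulators, and Btbd2, Gata6, Gas1 and Nasp changed sign, to 0.11, 0.11, 0.26 and −0.020. Without cells with 10 or more neuron-gene UMIs they were 0.091 for neuron and 0.087 for neurogenesis genes, −1.20 for Hox groups 5 to 9, and −0.93, −0.62, −0.61, −0.00528 and −0.78 for Nefl, Ebf1, Nhlh1, Onecut2 and Tubb3. Without the 3 cells per library with most of them, neuron genes were at 0.71, and without Notch2 the Notch pathway was at −0.12. Without cells rich in erythroid UMIs, erythroid markers were at 5506 CPM in WT and 2462 CPM in KO, and at 5645 and 2683 CPM in cells with 1 UMI of each kind. For cells with over cells without Olig2, thinning gave −0.42, 0.40, −1.06 and −0.15 for the Shh pathway, the Notch pathway, ventral factors and S phase genes in KO and 0.10 for G2/M phase genes in WT. Neurogenesis genes in KO were at −0.53 without cells rich in erythroid or cardiac UMIs and −0.59 without the 5% deepest cells, and without the cells rich in neuron-gene UMIs neurogenesis genes were at 0.31 and neuron genes at −0.29 in KO.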
